A study of Mus musculus with 11 samples.

Results

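The 44 genes described here encode the machinery that moves cargo along the primary cilium: the intraflagellar transport (IFT) complexes, their motors, and the BBSome with its chaperonin, adaptors and GTPases. They were chosen by name as subunits of these complexes, and all 44 were found among the 21684 genes of the deposited count table. Of these, 42 matched by symbol and 2 by gene ID, since Wdr34 stood in the table as Dync2i2 and Wdr60 as Dync2i1. The cells were NIH/3T3, an established mouse embryonic fibroblast line that grows a primary cilium when serum is withdrawn. All cells, the controls included, had spent 24 h in serum-free medium. The 11 libraries came from wild type cells (WT, 2 libraries), Xap5 knockout cells (Xap5 KO, 3 libraries), Nono knockout cells (Nono KO, 3 libraries) and Sox5 knockout cells (Sox5 KO, 3 libraries). Xap5 is the gene with the mouse symbol Fam50a. The labels name no separate clones and do not say that libraries of a group came from separate cultures, so p-values measure only the spread between these libraries, which may be technical.

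Intraflagellar transport carries cargo as trains along the axoneme. Kinesin-2 pulls the trains from the base of the cilium to its tip, and dynein-2 returns them. The trains are built from IFT-B, which has a core (IFT-B1) and a peripheral part (IFT-B2), and from IFT-A, which serves return transport and the entry of membrane proteins. The BBSome rides on the trains and takes membrane receptors out of the cilium, and fibroblasts depend on this traffic for Hedgehog signalling. Many genes of the pathway are bound by RFX transcription factors, which recognise the X-box, an inverted repeat near the start site.

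RefSeq promoter sequences (GRCm38.p6, from 250 bases before to 50 after the start) matched 39 of the 44 members, and none was found for Ift80, Dync2li1, Ift122, Ift81 and Ttc30b. The letters of the X-box were searched on both strands as GTNNCCGGNNAC, GTNNCCNGGNNAC, GTNNCCNNGGNNAC and GTNNCCNNNGGNNAC. They occurred in 8 of the 39 promoters (20.5%), against 4.38% of the 27025 genes with a RefSeq promoter. The 8 were Bbs1, Bbs4, Bbs7, Ift22, Ift57, Lztfl1, Ttc26 and Wdr19. The 8 matches before the start, in 6 members, are printed because they show the repeat in members of different complexes, and capitals mark the X-box letters.
Bbs7, chr3:36613482-36613525, minus strand: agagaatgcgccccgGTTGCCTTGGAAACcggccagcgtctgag
Ift22, chr5:136908072-136908145, plus strand: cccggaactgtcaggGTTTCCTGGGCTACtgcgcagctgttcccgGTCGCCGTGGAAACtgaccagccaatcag
Ift57, chr16:49699192-49699261, plus strand: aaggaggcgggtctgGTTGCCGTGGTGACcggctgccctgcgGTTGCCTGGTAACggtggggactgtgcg
Lztfl1, chr9:123717760-123717804, minus strand: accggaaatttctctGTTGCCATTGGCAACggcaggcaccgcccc
Ttc26, chr6:38381476-38381519, plus strand: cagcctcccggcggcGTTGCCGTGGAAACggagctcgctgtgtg
Wdr19, chr5:65199647-65199690, plus strand: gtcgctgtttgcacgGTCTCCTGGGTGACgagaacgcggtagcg
Ift22 and Ift57 each held a pair of matches before the start. Lztfl1 held a second match after the start, and in Bbs1 and Bbs4 the match lay after the start. The arm GTTGCC alone, which overlaps some of these matches, occurred in 16 of the 39 promoters (41.0%), against 14.1% of all genes. The letters AACAAT, a core that Sox factors can bind, occurred in 1 member promoter, that of Ift52 (2.56%, against 12.2% of all genes). A match is a description of the letters and not a binding site.

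The next 5 sequences are the 120 bases before the start of the members with the 4 largest falls and the largest rise in Sox5 KO, ranked by fold change with no offset for length or GC content. They are in lower case throughout, because none holds any of the letters searched, and no match says only that these letters are not in this window.
Dync2h1, chr9:7177059-7177178, minus strand: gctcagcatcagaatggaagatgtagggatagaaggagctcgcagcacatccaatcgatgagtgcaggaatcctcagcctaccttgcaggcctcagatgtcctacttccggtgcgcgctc
Ttc8, chr12:98920454-98920573, plus strand: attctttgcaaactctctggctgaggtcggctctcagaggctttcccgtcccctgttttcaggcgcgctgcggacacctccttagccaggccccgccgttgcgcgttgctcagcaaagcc
Wdr35, chr12:8973881-8974000, plus strand: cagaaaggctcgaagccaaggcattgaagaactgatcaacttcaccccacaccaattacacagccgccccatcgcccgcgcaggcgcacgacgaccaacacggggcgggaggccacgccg
Ift172, chr5:31291115-31291234, minus strand: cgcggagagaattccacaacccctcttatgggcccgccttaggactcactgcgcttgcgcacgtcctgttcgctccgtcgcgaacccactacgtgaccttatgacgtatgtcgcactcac
Ift20, chr11:78536241-78536360, plus strand: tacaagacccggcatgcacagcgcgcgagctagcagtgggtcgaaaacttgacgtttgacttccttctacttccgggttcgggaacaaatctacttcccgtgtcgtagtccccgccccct
The Dync2h1, Ift172 and Wdr35 promoters held GTTGCC after the start.

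Library totals ran from 30205878 to 43498383 counts, lowest in the Sox5 KO group. Fam50a stood at 62.9 to 64.8 CPM (counts scaled to a common library size with TMM factors) in WT and at 7.49 to 7.91 CPM in Xap5 KO. Nono stood at 351 to 357 CPM in WT and at 27.6 to 34.0 CPM in Nono KO. Sox5 stood at 45.9 to 49.7 CPM in WT, at 12.6 to 13.9 CPM in Sox5 KO, at 11.9 to 15.02 CPM in Xap5 KO and at 7.01 to 8.75 CPM in Nono KO. Sox5 RNA was thus below WT in all 3 lines, with log2 fold changes of -1.83 for Sox5 KO, -1.801 for Xap5 KO and -2.62 for Nono KO. Fam50a and Nono were also called outside their own lines. Nono was higher in Xap5 KO (0.30), and Fam50a was lower in Nono KO (-0.42). In Sox5 KO both were higher, Nono by 0.31 and Fam50a by 0.77. All 10 fibroblast markers had counts. Called higher and lower were 3 and 4 of them in Xap5 KO, 7 and 0 in Nono KO, and 6 and 3 in Sox5 KO, with median log2 fold changes of -0.12, 1.1203 and 0.47. Lum changed by -3.69 in Sox5 KO, and Col3a1 rose 12.9-fold in Nono KO. The largest part of their summed level was Fn1 in WT (mean 13959 CPM), which fell to a mean of 6298 CPM in Sox5 KO. The sums came to 23938 to 23992 CPM in WT, 18342 to 19654 in Xap5 KO, 47786 to 52489 in Nono KO and 19638 to 20138 in Sox5 KO. The 6 epithelial markers summed to at most 0.497 CPM in any library, with Krt8 and Krt18 at 0 throughout, and the 3 endothelial markers to at most 0.560 CPM. The 6 leukocyte markers summed to at most 11.6 CPM, the highest value being in Nono KO. Of these, Ptprc stood at 6.00 to 7.31 CPM in Nono KO and at 0.0908 and 0.124 in WT. It was at most 0.412 CPM in Xap5 KO and 0 in the Sox5 KO libraries. The 10 proliferation markers summed to 429 to 493 CPM in WT, 724 to 808 in Xap5 KO, 442 to 609 in Nono KO and 507 to 538 in Sox5 KO. The part of proliferation in the member differences was not tested. The 7 multiciliated-cell markers summed to 13.6 to 14.9 CPM in WT and to 4.79 to 6.12 in Sox5 KO. Their sums were also below WT for Xap5 KO (7.25 to 10.55 CPM) and for Nono KO (8.17 to 9.30 CPM). Nearly all of each sum was Ccdc39, which was called lower in every line. Ccdc39 changed by -1.37 in log2 units for Sox5 KO, by -0.62 for Xap5 KO and by -0.65 for Nono KO. Foxj1 stayed at or under 0.930 CPM.

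In serum-starved WT cells 43 of the 44 genes had counts, at unequal levels, and Kif17 had none. Levels between genes were compared as CPM per kb of the longest transcript. Ift74, an IFT-B1 core subunit, was highest at 33.2 CPM per kb, followed by the kinesin-2 subunits Kifap3 at 29.3 and Kif3a at 29.1. Bbs10, a chaperonin-like protein that assists BBSome assembly, was lowest of the 43 tested members at 1.55 CPM per kb, next to Bbs4 at 2.08 and Dync2h1 at 3.34. By complex, the median level was 29.1 CPM per kb for kinesin-2, taken over 3 genes without Kif17. It was 10.6 for IFT-A, 9.61 for dynein-2, 8.96 for IFT-B1, 8.43 for IFT-B2 and 7.17 for the BBSome. The Dync2h1 transcript is long, and its level per kb was the lowest of the dynein-2 genes, while its partner Dync2li1 stood at 19.7 CPM per kb. Kif17, the homodimeric kinesin-2 motor, had 13 counts in Nono KO replicate 3 and 0 counts in the other 10 libraries, and it was not tested. A count of 0 allows up to 3 counts, or 0.0681 to 0.102 CPM by library, and this covers counting error only.

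**Figure D1:**
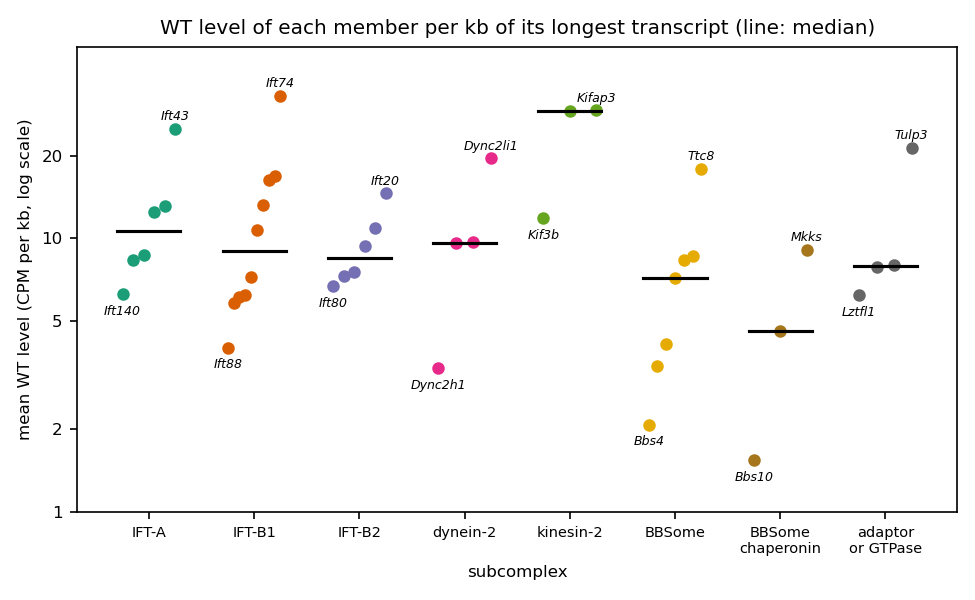
Mean WT level of each of the 43 tested members (points, 2 libraries) in CPM per kb of longest transcript on a log scale, by complex, with the median of each complex as a line. The points run from Bbs10 at 1.55 to Ift74 at 33.2, and kinesin-2 has the highest median.

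Each knockout line was compared with WT to describe how the levels of the transport genes differed. Whether loss of the named factor made these differences was not tested. In Xap5 KO, 6 members rose and 8 fell, led by a rise of Ift22 and falls of Ift122 and Ttc26. In Nono KO, 10 members rose and 8 fell, led by rises of Ift20 and Ift46 and a fall of Wdr19. In Sox5 KO, 5 members rose and 21 fell, led by falls of Dync2h1, Ttc8, Wdr35 and Ift172 and a rise of Ift20. These counts and rankings are with no offset for transcript length or GC content. With the offset, the largest falls in Sox5 KO were those of Ttc8 (-1.65), Wdr35 (-1.22) and Ift43 (-1.20), and Dync2h1 was at -0.53. A gene was called where the p of edgeR's quasi-likelihood test, adjusted over 13332 tested genes after Benjamini and Hochberg, was under 0.05. All comparisons with WT share the same 2 WT libraries.

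These counts stand against a wide background, since a large part of all tested genes was called. In Xap5 KO 14 of 43 members were called (32.6%), against 45.5% of all tested genes, of which 23.2% were higher and 22.3% lower. In Nono KO 18 members were called (41.9%), against 48.6% of all tested genes, with 23.5% higher and 25.1% lower. In Sox5 KO 26 members were called (60.5%), against 60.9% of all tested genes, with 30.6% higher and 30.3% lower. The share of members called was thus at or under the background in each line, and the members of Sox5 KO were unevenly split, with 21 lower and 5 higher. Without WT replicate 1 the count in Xap5 KO was 9, and without Nono KO replicate 3 the count in Nono KO was 12. The median log2 fold change of the 43 members was -0.23 for Sox5 KO, -0.09 for Xap5 KO and -0.06 for Nono KO. Over all tested genes it lay between -0.02 and 0.00 in the 3 comparisons. Changes of at least 1.5-fold were called for 12 members in Sox5 KO (34.9% of all tested genes), 3 in Xap5 KO (19.5%) and 3 in Nono KO (21.7%).

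Scaling bore on the split. With library totals alone in place of TMM, the median of all tested genes moved to -0.12 for Sox5 KO, -0.05 for Xap5 KO and -0.18 for Nono KO. Called members then numbered 3 higher and 12 lower in Xap5 KO, 4 higher and 20 lower in Nono KO, and 4 higher and 24 lower in Sox5 KO. All tested genes shifted alike, with 2652 higher and 3395 lower called in Xap5 KO, 2157 and 4988 in Nono KO, and 3341 and 4798 in Sox5 KO. Under that scaling the medians of the complexes relative to all tested genes were 0.08 for IFT-B1, 0.15 for IFT-B2, 0.12 for kinesin-2 and 0.17 for the adaptors and GTPases in Nono KO, each smaller than the shift of -0.18. The same held for IFT-B1 in Sox5 KO (0.08) and IFT-B2 in Xap5 KO (0.01), so these positive medians flipped below 0. The summed level of the 44 members was 1515 to 1548 CPM in WT, 1471 to 1498 in Xap5 KO, 1539 to 1590.1 in Nono KO and 1224 to 1243 in Sox5 KO. The Sox5 KO libraries all lay below the other 8 on this sum. In such bulk samples, fewer ciliated cells and less RNA per cell cannot be told apart.

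**Figure D2:**
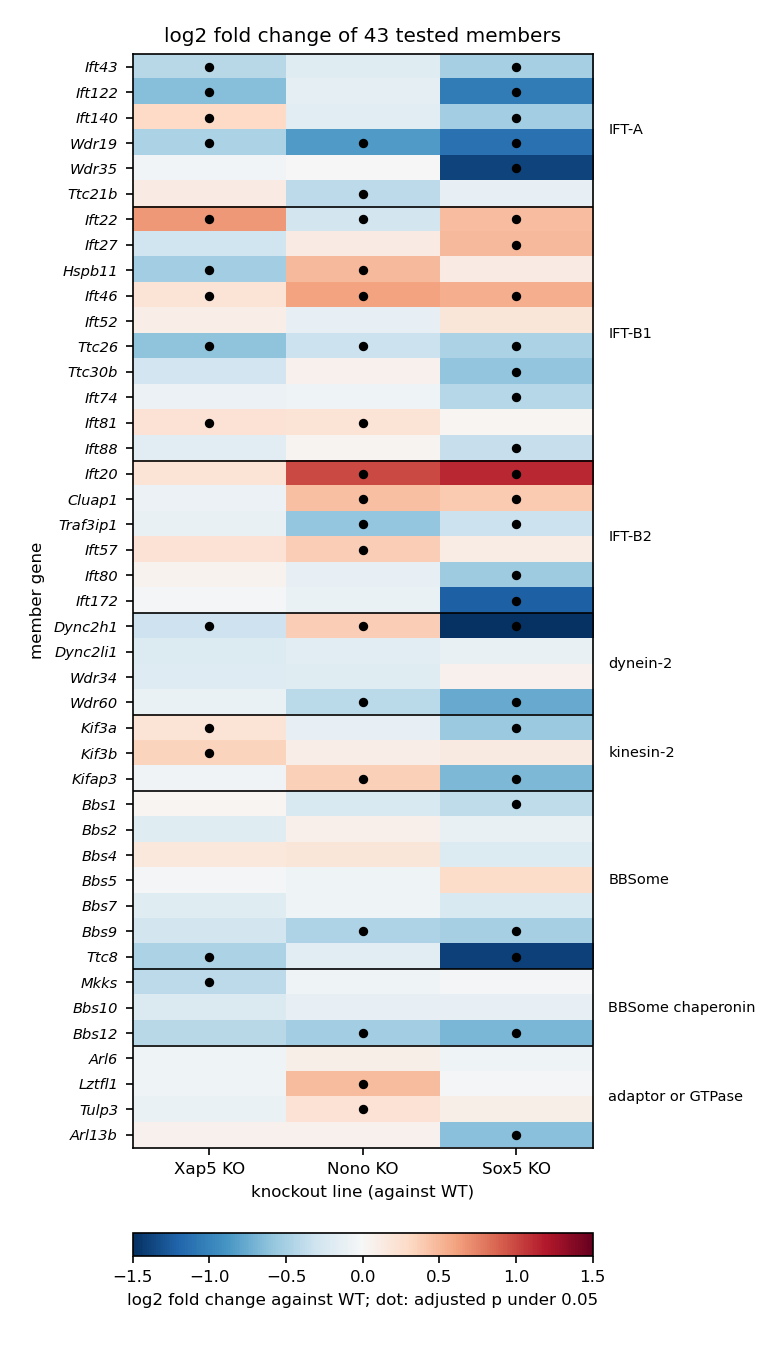
The log2 fold change against WT (colour, from -1.5 to 1.5) of the 43 tested members (rows, grouped by complex) in the 3 knockout lines (columns), with a dot where adjusted p was under 0.05. The Sox5 KO column holds 21 called falls and 5 called rises, and the darkest falls are Dync2h1, Ttc8 and Wdr35.

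IFT-A had the lowest median of the complexes in Sox5 KO. Of its 6 genes, 5 fell and none rose in Sox5 KO, with a median log2 fold change of -0.78. Xap5 KO had 1 rise and 3 falls (median -0.23), and Nono KO had no rise and 2 falls (median -0.18). With an offset for length and GC content, Ift140 was not called in Sox5 KO and Ttc21b was called higher there (0.30, adjusted p = 0.00411). The summed IFT-A level was 273 to 291 CPM in WT, 249 to 261 in Xap5 KO, 230 to 241 in Nono KO and 162 to 169 in Sox5 KO, and the ranges of WT and of each knockout did not overlap. Ift122, a core scaffold of IFT-A, had 56.4 and 60.5 CPM in the WT libraries, 37.6, 38.4 and 36.8 in those of Xap5 KO, 52.1, 53.5 and 54.7 in those of Nono KO, and 30.02, 29.5 and 25.5 in those of Sox5 KO. The Xap5 KO and Sox5 KO libraries lay well below WT. Ift122 changed by -0.63 in log2 units in Xap5 KO (SE 0.0838, adjusted p = 2.45e-06) and by -1.04 in Sox5 KO (SE 0.0845, adjusted p = 8.35e-10). In Nono KO its log2 fold change was -0.13 (adjusted p = 0.218), and the 3 values lay just below the lower WT value.

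Wdr19, the core subunit also called IFT144, fell in every line. It had 51.9 and 52.9 CPM in the WT libraries, 39.2, 39.7 and 34.1 in those of Xap5 KO, 28.3, 29.5 and 29.4 in those of Nono KO, and 21.4, 26.8 and 24.3 in those of Sox5 KO. No knockout library reached either WT value. Its log2 fold change was -0.48 for Xap5 KO (SE 0.0954, adjusted p = 0.000339), -0.85 for Nono KO (SE 0.0956, adjusted p = 2.19e-07) and -1.12 for Sox5 KO (SE 0.0966, adjusted p = 2.31e-09). The lines also differed from each other: Wdr19 was lower in Nono KO than in Xap5 KO by a log2 value of -0.38 (adjusted p = 0.00108), and lower in Sox5 KO than in Nono KO by -0.27 (adjusted p = 0.0132). Its X-box window is printed above.

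Wdr35, or IFT121, moved in Sox5 KO. It had 52.4 and 59.8 CPM in the WT libraries, 54.2, 53.1 and 56.3 in those of Xap5 KO, 54.7, 53.2 and 59.5 in those of Nono KO, and 19.1, 21.6 and 23.4 in those of Sox5 KO. The 3 Sox5 KO libraries were the lowest of the 11 by a wide gap, and those of the other lines overlapped WT. Sox5 KO kept 38.1% of the WT level (log2 fold change -1.39, SE 0.0924, adjusted p = 3.42e-11). Wdr35 was lower in Sox5 KO than in Xap5 KO by a log2 value of -1.35 (adjusted p = 1.74e-11) and than in Nono KO by -1.39 (adjusted p = 9.1e-12).

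The other IFT-A subunits had smaller changes. Ift140 rose in Xap5 KO (log2 fold change 0.30, adjusted p = 0.00828) and fell in Sox5 KO (-0.52, adjusted p = 2.56e-05), where the offset ended the call (-0.05, adjusted p = 0.669). The Xap5 KO libraries ran from 51.0 to 58.0 CPM, above the 42.5 and 44.4 of WT, and the Sox5 KO libraries from 28.1 to 31.8. Ift43, a small peripheral subunit, fell in Xap5 KO (-0.42) and in Sox5 KO (-0.50). Ttc21b, or IFT139, fell in Nono KO by 0.39 in log2 units (adjusted p = 0.00041), with 37.1 to 40.2 CPM against 48.4 and 52.8 in WT.

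IFT-B1 split in both directions in each line. Of its 10 genes, 3 rose and 2 fell in Xap5 KO, 3 rose and 2 fell in Nono KO, and 3 rose and 4 fell in Sox5 KO. The medians were -0.12, 0.06 and 0.07 on the log2 scale. With the offset for length and GC content the median relative to all tested genes was -0.15 in Sox5 KO, below 0. Ift22, a small GTPase-like core subunit, had 17.2 and 20.8 CPM in the WT libraries, 31.5, 29.5 and 28.4 in those of Xap5 KO, 15.3, 15.4 and 16.5 in those of Nono KO, and 27.7, 27.1 and 23.6 in those of Sox5 KO. Xap5 KO and Sox5 KO lay above WT, and Nono KO lay below it. Ift22 rose by 0.65 in Xap5 KO (SE 0.111, adjusted p = 6.23e-05) and by 0.46 in Sox5 KO (SE 0.111, adjusted p = 0.00123). Its fall in Nono KO was near the threshold (-0.28, SE 0.110, adjusted p = 0.0442), and without WT replicate 2 it was -0.12 (adjusted p = 0.517). That call was also lost without any 1 of the Xap5 KO libraries, without Nono KO replicate 1 or 2, and without Sox5 KO replicate 2, with adjusted p from 0.0501 to 0.1003. Under the replicate block (adjusted p = 0.0906), DESeq2's Wald test (0.0772), DESeq2 size factors (0.0571), no expression filter (0.0576) and a fit of the 2 groups alone (0.120) it was lost as well. The rise in Sox5 KO was 0.32 without WT replicate 1 (adjusted p = 0.0551). Set against each other, Nono KO was lower than Xap5 KO by -0.92 (SE 0.0990, adjusted p = 9.74e-08).

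Ift46, which links cargo such as dynein arms to the train, rose in every line. It had 45.4 and 44.0 CPM in the WT libraries, 54.7, 50.1 and 50.5 in those of Xap5 KO, 67.4, 72.3 and 64.7 in those of Nono KO, and 69.5, 64.6 and 61.9 in those of Sox5 KO. No knockout library was as low as WT. The log2 fold change was 0.61 in Nono KO (SE 0.0798, adjusted p = 1.94e-06) and 0.55 in Sox5 KO (SE 0.0799, adjusted p = 4.53e-06). It was 0.21 in Xap5 KO (SE 0.0792, adjusted p = 0.0354), and this call was lost without Xap5 KO replicate 1 (0.16, adjusted p = 0.145), without WT replicate 1 (0.22, adjusted p = 0.113) and without WT replicate 2 (0.18, adjusted p = 0.200). It was also lost with library totals alone (0.16, adjusted p = 0.108), with no expression filter (adjusted p = 0.0573) and with the 2 groups fitted alone (adjusted p = 0.0625).

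Ttc26, or IFT56, fell in every line. It had 24.0 and 25.3 CPM in the WT libraries, 17.9, 12.8 and 18.0 in those of Xap5 KO, 20.3, 19.5 and 19.2 in those of Nono KO, and 17.9, 17.3 and 18.2 in those of Sox5 KO. All 9 knockout libraries lay below WT, and Xap5 KO replicate 2 was the lowest. The log2 fold change was -0.61 for Xap5 KO (SE 0.127, adjusted p = 0.000526), -0.33 for Nono KO (SE 0.127, adjusted p = 0.0389) and -0.47 for Sox5 KO (SE 0.128, adjusted p = 0.00333). The Nono KO call was lost without any 1 of the 3 Nono KO libraries, without either WT library, and without Sox5 KO replicate 3, with adjusted p from 0.0503 to 0.204, and with DESeq2's Wald test (adjusted p = 0.0646).

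The other IFT-B1 genes changed in 1 or 2 lines or in none. Ttc30b, or IFT70, had 16.3 and 17.1 CPM in the WT libraries, 13.7, 13.1 and 14.4 in those of Xap5 KO, 17.8, 17.2 and 17.4 in those of Nono KO, and 12.3, 11.1 and 9.86 in those of Sox5 KO. The Sox5 KO libraries were the lowest, and Ttc30b fell there by 0.59 in log2 units (SE 0.125, adjusted p = 0.000343). Its near-identical paralogs Ttc30a1 and Ttc30a2 make its counts uncertain. Ttc30a1 was called higher in Xap5 KO (0.52, adjusted p = 0.0113) and Nono KO (0.44, adjusted p = 0.0263). In Sox5 KO Ttc30a1 was at 0.34 (adjusted p = 0.0707), and Ttc30a2 was called in no line. Ift74, which pairs with Ift81 to bind tubulin, fell in Sox5 KO (-0.42). Ift81 rose in Xap5 KO (0.22) and Nono KO (0.20), and with the length and GC offset neither was called (0.16 and 0.10). Ift27, a small GTPase that couples the BBSome to the train, rose in Sox5 KO (0.49), with 26.4 to 31.6 CPM against 19.1 and 22.3 in WT, and was not called there with the offset (0.08). Hspb11, its partner IFT25, fell in Xap5 KO (-0.52, adjusted p = 0.026) and rose in Nono KO (0.48, adjusted p = 0.0361). Its values were 5.54 to 9.08 CPM in Xap5 KO, 12.1 to 16.9 in Nono KO, and 9.74 and 11.9 in WT, and the groups did not overlap. With the offset the Nono KO call was lost (0.24, adjusted p = 0.300). Ift88, a core subunit long used as a model of cilium loss, fell in Sox5 KO (-0.34, adjusted p = 0.0458; -0.17 and not called with the offset), and Ift52 was called in no line.

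IFT-B2 held the largest rise and one of the largest falls. Of its 6 genes, none was called in Xap5 KO, 3 rose and 1 fell in Nono KO, and 2 rose and 3 fell in Sox5 KO. The medians were 0.01, 0.13 and -0.11. Ift20, the subunit also found at the Golgi, where it sorts membrane cargo to the cilium, had 17.2 and 16.9 CPM in the WT libraries, 19.8, 17.8 and 21.6 in those of Xap5 KO, 32.3, 31.5 and 37.9 in those of Nono KO, and 38.9, 38.5 and 34.9 in those of Sox5 KO. All Nono KO and Sox5 KO libraries lay above every other library. Ift20 rose 1.99-fold in Nono KO (log2 0.99, SE 0.110, adjusted p = 1.84e-07) and 2.19-fold in Sox5 KO (log2 1.13, SE 0.111, adjusted p = 1.47e-08). In Xap5 KO the log2 fold change was 0.21 (adjusted p = 0.124).

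Ift172, a large peripheral subunit at the tip of the train, had 54.7 and 63.2 CPM in the WT libraries, 57.7, 60.3 and 54.9 in those of Xap5 KO, 52.6, 53.0 and 59.2 in those of Nono KO, and 22.6, 26.5 and 26.4 in those of Sox5 KO. The Sox5 KO libraries lay far below the other 8, which overlapped. Sox5 KO kept 42.7% of the WT level (log2 fold change -1.23, SE 0.0926, adjusted p = 2.72e-10). Ift80 also fell in Sox5 KO, by 0.53 on the log2 scale (adjusted p = 9.12e-06), but with the offset the value was 0.07 and was not called. Traf3ip1, or IFT54, fell in Nono KO (-0.58, adjusted p = 0.000184) and Sox5 KO (-0.32, adjusted p = 0.016). Cluap1, or IFT38, rose in Nono KO (0.45) and Sox5 KO (0.40), and neither was called with the offset (0.31 and -0.0032). Ift57, a partner of Ift20, rose in Nono KO (0.37).

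**Figure D3:**
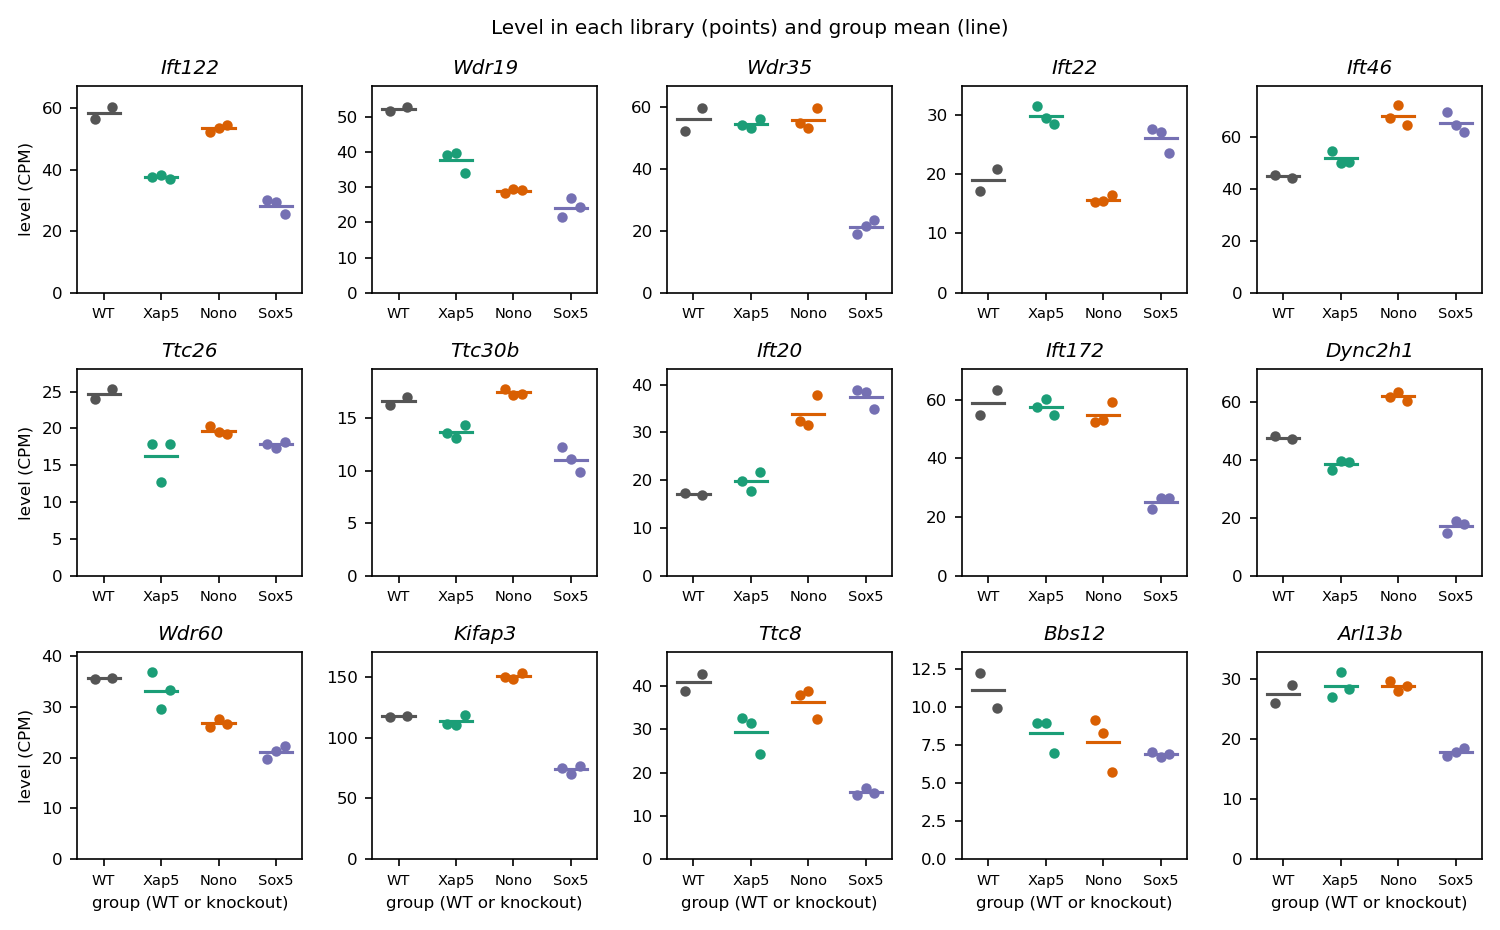
Level in CPM (vertical axes, from 0, scaled per gene) of 15 members in each library (points) with the group mean (line), in the 4 groups. Sox5 KO points stand apart below all others for Wdr35, Ift172, Dync2h1, Ttc8 and Arl13b, and Nono KO and Sox5 KO points stand above for Ift20.

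In dynein-2, the return motor, the heavy chain and 1 intermediate chain of the 4 members were called with no length or GC offset. Of these 4 genes, 1 fell in Xap5 KO, 1 rose and 1 fell in Nono KO, and 2 fell in Sox5 KO, with medians of -0.20, -0.17 and -0.43. Dync2h1, the heavy chain with the motor domain, had 48.1 and 47.3 CPM in the WT libraries, 36.6, 39.5 and 39.2 in those of Xap5 KO, 61.6, 63.5 and 60.3 in those of Nono KO, and 14.8, 18.8 and 17.7 in those of Sox5 KO. The 4 groups did not overlap, with Nono KO highest and Sox5 KO lowest. In Sox5 KO 35.9% of the WT level remained (log2 fold change -1.48, SE 0.0927, adjusted p = 1.36e-11). It fell by 0.31 in Xap5 KO (SE 0.0906, adjusted p = 0.00814) and rose by 0.37 in Nono KO (SE 0.0914, adjusted p = 0.0018). The rise in Nono KO was 0.21 with library totals alone (adjusted p = 0.0611). Nono KO exceeded Xap5 KO by 0.68 on the log2 scale (adjusted p = 4.43e-07), and Sox5 KO lay below Nono KO by -1.85 (SE 0.0862, adjusted p = 1e-13).

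Wdr60, an intermediate chain, had 35.6 and 35.7 CPM in the WT libraries, 36.9, 29.5 and 33.3 in those of Xap5 KO, 26.2, 27.7 and 26.6 in those of Nono KO, and 19.8, 21.3 and 22.3 in those of Sox5 KO. The Nono KO and Sox5 KO libraries lay below WT without overlap. It fell in Nono KO by 0.41 (SE 0.0988, adjusted p = 0.00164), and the fall in Sox5 KO was 0.75 (SE 0.0997, adjusted p = 1.18e-06). Wdr34, the other intermediate chain, and Dync2li1, the light intermediate chain, were called in no line, with log2 fold changes from -0.20 to 0.06. The tested light chains of the partner list, looked at after their values were seen, were higher or not called. Dynll1 was called higher in Sox5 KO alone (0.28, adjusted p = 0.00317), Dynll2 was called in no line, and Dynlrb2 had 0 counts in every library. Dynlt2b rose in Nono KO (0.62, adjusted p = 0.0029) and Sox5 KO (0.48, adjusted p = 0.0133). Dynlrb1 rose in Nono KO (0.38, adjusted p = 0.0109) and Sox5 KO (0.73, adjusted p = 4.5e-05). Its longest transcript has 788 bases, and all tested genes under 1500 bases had a median of 0.55 in Sox5 KO.

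In kinesin-2, the outward motor, 2 of the 3 tested subunits rose in Xap5 KO, 1 rose in Nono KO and 2 fell in Sox5 KO, with medians of 0.20, 0.10 and -0.55. Kifap3, the accessory subunit that binds the Kif3a and Kif3b motors, had 117 and 118 CPM in the WT libraries, 112, 110.4 and 119 in those of Xap5 KO, 149.8, 148 and 154 in those of Nono KO, and 74.8, 70.2 and 76.8 in those of Sox5 KO. Xap5 KO overlapped WT, Nono KO lay above and Sox5 KO below. It rose by 0.36 in Nono KO (SE 0.0608, adjusted p = 5.05e-05) and fell by 0.67 in Sox5 KO (SE 0.0604, adjusted p = 4.56e-09). Kif3a rose in Xap5 KO (0.20, adjusted p = 0.0369, and 0.0544 with the length and GC offset) and fell in Sox5 KO (-0.55, adjusted p = 2.36e-06). Its Sox5 KO libraries ran from 55.8 to 66.4 CPM against 90.3 and 93.5 in WT. Kif3b rose in Xap5 KO (0.33, adjusted p = 0.000539), with 80.2 to 87.6 CPM against 65.0 and 68.9 in WT. The Xap5 KO level of Kif3a and Kif3b was also above those of Nono KO and Sox5 KO, by tests between the lines. The summed kinesin-2 level was 273 to 280.2 CPM in WT, 292 to 312 in Xap5 KO, 305 to 309.6 in Nono KO and 205 to 213 in Sox5 KO, so the first 2 lines lay above WT and the third below it.

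Most BBSome genes were not called. Of the 7 core subunits among the members, none rose in any line. Another BBSome subunit, Bbip1, is in the partner list and is named here after its value was seen: it rose in Sox5 KO, to 15.5 to 18.8 CPM against 10.2 and 12.4 in WT (0.65, adjusted p = 0.000821). Falls numbered 3 for Sox5 KO, 1 for Xap5 KO and 1 for Nono KO, with medians of -0.23, -0.18 and -0.06. Ttc8, or BBS8, had 38.8 and 42.8 CPM in the WT libraries, 32.6, 31.4 and 24.3 in those of Xap5 KO, 37.9, 38.9 and 32.4 in those of Nono KO, and 14.9, 16.4 and 15.2 in those of Sox5 KO. The Sox5 KO libraries were the lowest, the Xap5 KO libraries lay between them and WT, and Nono KO overlapped WT. Ttc8 kept 38.0% of the WT level in Sox5 KO (log2 fold change -1.40, SE 0.117, adjusted p = 1.38e-09). In Xap5 KO it fell by 0.47 (SE 0.114, adjusted p = 0.00191). Bbs9, a scaffold subunit, fell in Nono KO (-0.47, adjusted p = 0.00637) and Sox5 KO (-0.49, adjusted p = 0.00341). Bbs1, which binds the membrane GTPase Arl6, fell in Sox5 KO (-0.38, adjusted p = 0.0107), where the offset ended the call (-0.06). Bbs2, Bbs4, Bbs5 and Bbs7 were called in no line, with log2 fold changes from -0.23 to 0.28.

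The BBSome is assembled with 3 chaperonin-like proteins, Mkks (BBS6), Bbs10 and Bbs12. Bbs12 had 12.3 and 9.94 CPM in the WT libraries, 8.98, 8.98 and 6.98 in those of Xap5 KO, 9.15, 8.30 and 5.72 in those of Nono KO, and 7.08, 6.71 and 6.92 in those of Sox5 KO. All 9 knockout libraries lay below WT. It fell in Nono KO by 0.52 (SE 0.191, adjusted p = 0.0284), and the fall in Sox5 KO was 0.69 (SE 0.193, adjusted p = 0.00413). In Xap5 KO the log2 fold change was -0.42 (adjusted p = 0.0808). Without WT replicate 1 neither call held (-0.36, adjusted p = 0.267 in Nono KO; -0.53, adjusted p = 0.0718 in Sox5 KO), and without Nono KO replicate 3 the Nono KO call was lost (-0.35, adjusted p = 0.127). It was also lost with the replicate block (-0.43, adjusted p = 0.0567) and with the 2 groups fitted alone (adjusted p = 0.0605). Mkks was called lower in Xap5 KO (-0.39, adjusted p = 0.0203), although its highest Xap5 KO library, at 27.6 CPM, reached the lower WT value. Exons of 9 members overlap other genes, so reads of those genes may be mixed in. The 9 were Ift88, Cluap1, Ift57, Kif17, Bbs4, Mkks, Bbs12, Arl6 and Lztfl1. For Cluap1, Kif17, Mkks and Bbs12 an overlap lay on the same strand, and for all but Kif17 one lay on the opposite strand.

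Among the adaptors and GTPases, Arl13b, a ciliary membrane GTPase needed for Hedgehog signalling, had 26.1 and 29.1 CPM in the WT libraries, 27.0, 31.2 and 28.4 in those of Xap5 KO, 29.7, 28.1 and 28.9 in those of Nono KO, and 17.1, 17.9 and 18.5 in those of Sox5 KO. The Sox5 KO libraries lay below the other 8, which overlapped. It fell in Sox5 KO by 0.63 (SE 0.0984, adjusted p = 1.04e-05). Lztfl1, which restrains BBSome entry into the cilium, rose in Nono KO (0.47, adjusted p = 0.000251), at 51.9 to 59.7 CPM against 38.8 and 42.0 in WT. Tulp3, which brings receptors to the cilium with IFT-A, rose in Nono KO (0.22, adjusted p = 0.021, and 0.0544 with the offset), and Arl6, the GTPase that recruits the BBSome, was called in no line.

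The lines were then compared directly. Against Xap5 KO, Nono KO had 15 members higher and 10 lower, 25 of 43 in all, where 53.0% of all tested genes were called, 25.9% higher and 27.1% lower. Sox5 KO had 7 members higher and 18 lower than Xap5 KO, where 61.6% of all genes were called, 30.4% higher and 31.1% lower. Against Nono KO it had 6 higher and 20 lower, where 63.5% were called, 32.6% higher and 30.9% lower. Differences of at least 1.5-fold were called for 4 members between Nono KO and Xap5 KO (22.2% of all tested genes). They were called for 14 between Sox5 KO and Xap5 KO (31.5%) and for 9 between Sox5 KO and Nono KO (34.6%). Lower in Sox5 KO than in each of the 3 other groups were 14 members, and this held for 16.4% of all tested genes. They were Ift122, Ift140, Wdr19, Wdr35, Ttc30b, Ift74, Ift80, Ift172, Dync2h1, Wdr60, Kif3a, Kifap3, Ttc8 and Arl13b. Only Ift27 was higher in Sox5 KO than in every other group (16.8% of all genes). Nono KO stood above the other groups for Dync2h1, Kifap3 and Lztfl1 (8.71% of all genes) and below them for Ttc21b, Ift22 and Traf3ip1 (9.39%). Xap5 KO stood above them for Ift140, Kif3a and Kif3b (6.65%) and below for Hspb11 and Mkks (6.68%). Without WT replicate 1 or without Xap5 KO replicate 2 the 5 Xap5 KO members became 2, and without WT replicate 2 or Xap5 KO replicate 1 they became 3. For Hspb11, Nono KO exceeded Xap5 KO by 1.01 log2 units (SE 0.167, adjusted p = 3.22e-05). For Kifap3, Sox5 KO lay below Nono KO by -1.03 (SE 0.0551, adjusted p = 1.01e-12).

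In Sox5 KO fold changes moved with transcript length across all genes. The median log2 fold change of all tested genes was 0.55 for longest transcripts under 1500 bases, 0.21 from 1500 to 3000, -0.03 from 3000 to 4500, -0.22 from 4500 to 6000 and -0.52 over 6000. Members in the same classes had medians of 0.08 (4 members), 0.03 (13), -0.33 (16), -0.38 (5) and -0.53 (5). Called lower were 1 of 4 members under 1500 bases, 4 of 13 from 1500 to 3000 and 9 of 16 from 3000 to 4500. Of the longer members, 3 of 5 were called lower from 4500 to 6000 and 4 of 5 over 6000. The shares of all tested genes called lower in these classes were 6.06%, 16.2%, 30.2%, 44.5% and 65.4%. Ift20 is among the shortest transcripts of the set and Dync2h1 the longest. Across the 43 members Pearson's r of log2 fold change with log length was -0.49 for Sox5 KO, 0.14 for Xap5 KO and -0.16 for Nono KO, where all genes gave -0.22, -0.06 and -0.07. These correlations are across genes, which share libraries and are not independent replicates.

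**Figure D4:**
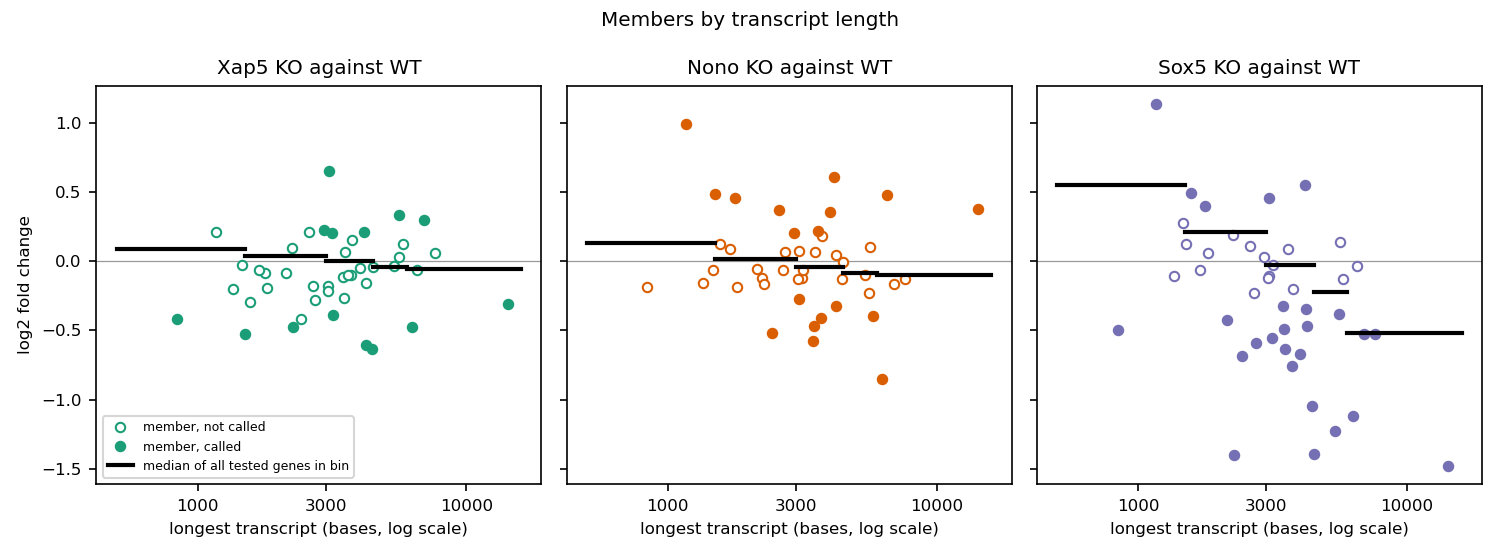
Log2 fold change against WT of the 43 members (points, filled where called) by length of longest transcript in bases on a log scale, for each line, with the median of all tested genes per length class as bars. In Sox5 KO the bars descend from 0.55 to -0.52, and in the other lines they stay between 0.13 and -0.10.

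When transcript length and GC content entered the fit as an offset, 20 of the 26 calls in Sox5 KO stayed with the same direction and none reversed. Lost were Ift140, Ift27, Ift88, Cluap1, Ift80 and Bbs1. Gained were rises of Ttc21b (0.30), Kif3b (0.47) and Lztfl1 (0.52) and falls of Dync2li1 (-0.63), Bbs7 (-0.40) and Arl6 (-0.42). The split was then 6 higher and 20 lower. The fall of Dync2h1 went from -1.48 to -0.53 (adjusted p = 2.58e-05) and the rise of Ift20 from 1.13 to 0.53 (adjusted p = 0.000263). The falls of Wdr35 (-1.22), Ttc8 (-1.65), Ift172 (-0.92), Ift122 (-0.88) and Wdr19 (-0.70) stayed past a fold of 1.5. Ift43, among the shortest transcripts, went from -0.50 to -1.20. The offset kept 12 of 14 calls in Xap5 KO and 14 of 18 in Nono KO, with none reversed, and the splits were 4 higher and 13 lower and 6 higher and 13 lower. Lost were Ift81 and Kif3a in Xap5 KO, and Hspb11, Ift81, Cluap1 and Tulp3 in Nono KO. Gained in Xap5 KO were falls of Ift27, Ttc30b, Ift74, Dync2li1 and Bbs12, and in Nono KO falls of Ift43, Ift52, Ift74, Dync2li1 and Ttc8. With the offset all tested genes had 3042 higher and 3222 lower calls in Xap5 KO, 3009 and 3411 in Nono KO, and 4082 and 3422 in Sox5 KO. In Sox5 KO the offset also changed the order of the members, with Ift46 (0.65) above Ift20. Dync2h1 then stood behind Ttc8, Wdr35, Ift43, Ift172, Bbs12, Ift122 and Ttc30b. It also stood behind Wdr60, Wdr19, Ift74, Kif3a, Dync2li1, Arl13b and Kifap3.

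**Figure D5:**
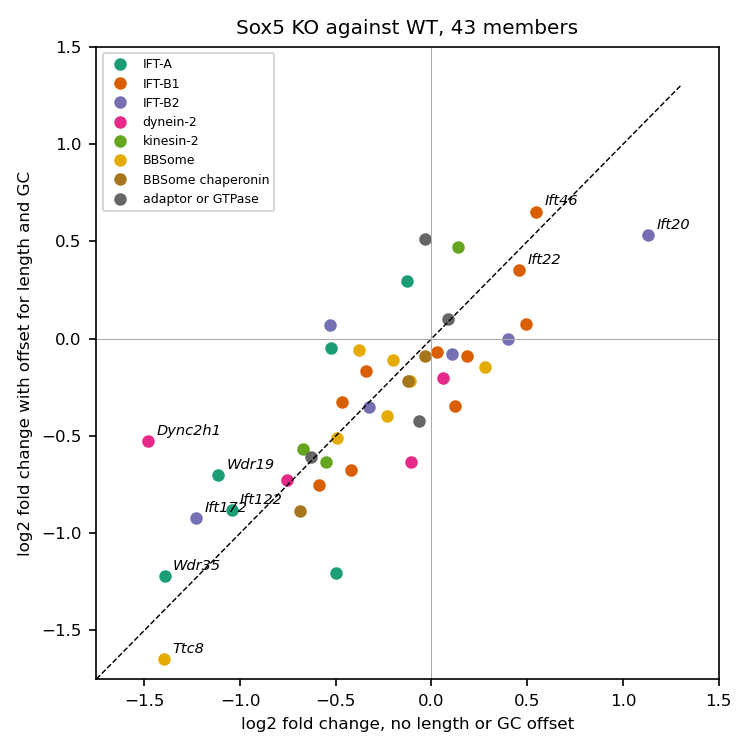
Log2 fold change of the 43 members in Sox5 KO against WT, without (horizontal axis) and with (vertical axis) an offset for length and GC content, coloured by complex, with the line of equal values dashed. Wdr35 and Ttc8 lie near the line at the lower left, and Dync2h1 moves from -1.48 to -0.53.

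A list of 34 other genes of ciliary transport (motor light chains, kinases, Rab and Arl GTPases and their carriers) was called about as often as all tested genes or less. Of 31 tested, 4 rose and 6 fell in Xap5 KO, 8 rose and 7 fell in Nono KO, and 12 rose and 7 fell in Sox5 KO, with medians of 0.01, -0.03 and 0.04. These were 32.3%, 48.4% and 61.3% of the 31, against 45.5%, 48.6% and 60.9% of all tested genes. Only Kif3c and Cdk20 were called with a change of at least 2-fold in any line. Kif3c, which can replace Kif3b in kinesin-2, stood at 84.0 and 83.5 CPM in WT and at 35.1 to 38.8 CPM in Sox5 KO. Its log2 fold change there was -1.19 (SE 0.0814, adjusted p = 5.37e-11), with smaller falls in Xap5 KO (-0.42) and Nono KO (-0.33). The longest Kif3c transcript has 6791 bases, and all tested genes over 6000 bases had a median of -0.52 in Sox5 KO. Values with the length and GC offset are given for members only, not for this list. Cdk20, a kinase of ciliary growth control, stood at 18.8 and 19.9 CPM in WT, at 10.7 to 11.1 in Xap5 KO, at 7.79 to 9.01 in Nono KO and at 7.43 to 8.94 in Sox5 KO. Every knockout library lay well below WT. Cdk20 fell by 1.26 for Sox5 KO, by 0.81 for Xap5 KO and by 1.19 for Nono KO in log2 units, and the largest adjusted p of the 3 was 4.93e-05.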

How the data were processed

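The authors deposited one table of gene values, per the file headers, and its whole numbers are treated here as estimated counts, rounded before they were deposited. The reason is an excess of even values: 3302 entries equal 2 and 857 equal 1. The submitters' processing notes name HISAT2 2.1.0, StringTie 1.3.3b, DESeq2 1.12.4 and the build GRCm39, with no roles given. The handling of strand is not given in the sources used here. All 11 libraries were fitted together in R 4.3.3 with edgeR 4.0.16, using 1 mean for each group, TMM scaling, edgeR's expression filter (minimum count 10, minimum total 15) and the robust quasi-likelihood test. The Benjamini-Hochberg adjustment ran over 13332 tested genes. The common biological coefficient of variation was 10.6%. Transcript length and GC content came from GENCODE M21 (GRCm38) and covered 99.7% of tested genes, and exon overlaps came from the same source. The fit was tested on simulated data. Alternatives were DESeq2 1.42.0, other scalings, no filter, the contrast's 2 groups alone, a replicate block, a length and GC offset, and each library left out. The members and lists were chosen with earlier results of these data known. Values in every library were given for members called with a fold of at least 1.5 in any line or called in all 3, and other genes by the range or fold change.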

Additional observations from a re-analysis of the deposited data

How the results depend on the processing

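No library pair looked like one library deposited again, as chi-square per degree of freedom between replicates was 9.54 or more. The alternatives were recomputed gene by gene for the 15 members with full statistics, and no called fold change of theirs changed sign, while some uncalled values near 0 did, such as Wdr35 in Nono KO (-0.17 to 0.10). Of these fold changes, 295 kept their side of the threshold, 8 passed it and 12 no longer did under the other settings. With each library left out, 474 kept it, 1 passed it and 20 no longer did. Calls of at least 1.5-fold against WT numbered 12 for Sox5 KO, 3 for Xap5 KO and 3 for Nono KO, with 4 for Nono KO against Xap5 KO, 14 for Sox5 KO against Xap5 KO and 9 for Sox5 KO against Nono KO, and the stricter rule itself lowers them. With only the 2 groups of each contrast fitted, 3 members stood apart in Xap5 KO from every other group in place of 5, and fewer samples entered each fit. With the length and GC offset, the median relative to all tested genes became -0.20 for IFT-B1 in Xap5 KO, 0.026 for IFT-B1, 0.19 for kinesin-2 and -0.14 for the BBSome in Nono KO, and -0.15 for IFT-B1 and -0.60 for dynein-2 in Sox5 KO, and the cause was not tested. Leaving out each library gave 21 to 26 called members for Sox5 KO, 9 to 15 for Xap5 KO and 12 to 18 for Nono KO against WT. The 9 came without WT replicate 1, against 14 with all libraries. Between lines the ranges were 21 to 25 for Nono KO against Xap5 KO, 23 to 25 for Sox5 KO against Xap5 KO and 21 to 27 for Sox5 KO against Nono KO. Members apart from every other group ranged from 14 to 16 for Sox5 KO, 2 to 5 for Xap5 KO and 4 to 7 for Nono KO. With the replicate block the counts were 13, 15, 26, 25, 25 and 25 for Xap5 KO, Nono KO and then Sox5 KO against WT, Nono KO against Xap5 KO, and Sox5 KO against Xap5 KO and against Nono KO. The numbers did not pair the libraries, since the deviations of 15 same-numbered pairs correlated at -0.02 to 0.05, none over 0.1. WT had 2 libraries, so leaving one out rests on the assumption that the lone library varies like the other groups. The left-out libraries include those outside a contrast, and such a refit keeps both compared groups whole. Members of low count, such as Bbs10, Bbs12, Hspb11 and Bbs4, had the widest errors.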
